A study of Mus musculus with 24 samples.

Results

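The hypoxia response was followed through 10 genes in plantaris, a fast hindlimb muscle of the mouse. They were the HIF subunits Hif1a and Epas1, the oxygen sensors Egln1 and Egln3, the secreted factors Vegfa and Adm, and the target genes Pfkfb3, Slc2a1, Ndrg1 and Ankrd37. The members were the rows of the deposited count table whose mouse symbol is on this list, 10 of 47643 genes. Each matched 1 Ensembl gene. The list was chosen by measured values, the smoke against air differences of Pfkfb3 and Ndrg1 in these samples, so the smoke difference of the members is a description. Which members passed the test over all genes is stated, but the choice of list fixed this for Pfkfb3 and Ndrg1, and no p is given.

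The samples were plantaris muscles of wild type C57BL/6 mice, 11 from mice in normal air and 13 from mice given 16 weeks of tobacco smoke. No genotype other than wild type was used. Age, sex and the time of day at collection were not given in the sources used here. The labels number the samples within each group but do not say that each came from a separate animal, so p-values measure the spread between samples. Counts came from 3′-end RNA sequencing, in which a transcript gives reads near its poly(A) tail. Values are CPM, read counts scaled to library size, with libraries adjusted by TMM (trimmed mean of M values), and are compared between samples and not between genes.

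Library totals ran from 2515697 to 4528845 counts. All 6 skeletal muscle markers (Acta1, Ckm, Myh4, Myh1, Mylpf and Tnnt3) passed the expression filter, with a summed level of 121485 to 191338 CPM in air and 128622 to 164070 CPM in smoke. Smoke replicates 2, 10 and 12 stood apart in markers of Schwann cells, the glia that wrap motor axons. Their summed level over 8 such markers was 953, 693 and 724 CPM, against at most 384 CPM in any air sample. Values of Pfkfb3, Ndrg1 and the Schwann cell markers are given with and without these samples. Red blood cell markers differed the other way: 3 of 5 were called lower in smoke, and their summed level was 486 to 1444 CPM in air and 369 to 883 CPM in smoke. In whole muscle, a change in the number of cells of a type and a change in RNA per cell cannot be told apart.

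As background, cells read oxygen through the stability of the HIF alpha subunits, of which HIF-1α (Hif1a) and HIF-2α (Epas1) are the best known. With oxygen present, the prolyl hydroxylases PHD2 (Egln1) and PHD3 (Egln3) mark these subunits for destruction through the von Hippel-Lindau protein. When oxygen falls they persist, pair with ARNT and bind hypoxia response elements with the core ACGTG or GCGTG. Their targets raise glucose uptake and glycolysis and call in new capillaries. Since oxygen acts mainly on the HIF proteins, the messenger RNA of Hif1a does not report the activity of the pathway.

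The promoter sequences below are shown because the letters of the HIF core can be read in them directly. They are RefSeq sequences on GRCm38.p6 from the 250 bases before an annotated start, 5′ to 3′ on the strand of the gene, with each ACGTG or GCGTG on either strand in capitals. Pfkfb3 is shown at both of its listed starts because it had the widest smoke difference of the members, Vegfa at its outer start because it had the lowest fold change, and Ankrd37 because it held several matches without a smoke difference past the threshold. All of them lie on the minus strand.
Pfkfb3, outer start, chr2:11553930-11554179: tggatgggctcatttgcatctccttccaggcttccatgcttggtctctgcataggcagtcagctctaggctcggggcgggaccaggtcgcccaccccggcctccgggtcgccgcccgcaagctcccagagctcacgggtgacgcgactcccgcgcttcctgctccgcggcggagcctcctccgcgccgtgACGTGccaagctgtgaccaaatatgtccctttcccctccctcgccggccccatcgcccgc
Pfkfb3, inner start, chr2:11502091-11502340: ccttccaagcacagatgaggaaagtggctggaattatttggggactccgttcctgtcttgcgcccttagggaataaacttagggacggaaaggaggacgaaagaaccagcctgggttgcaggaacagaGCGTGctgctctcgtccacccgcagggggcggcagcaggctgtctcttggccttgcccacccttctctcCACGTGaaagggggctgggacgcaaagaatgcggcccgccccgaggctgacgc
Vegfa, outer start, chr17:46032378-46032627: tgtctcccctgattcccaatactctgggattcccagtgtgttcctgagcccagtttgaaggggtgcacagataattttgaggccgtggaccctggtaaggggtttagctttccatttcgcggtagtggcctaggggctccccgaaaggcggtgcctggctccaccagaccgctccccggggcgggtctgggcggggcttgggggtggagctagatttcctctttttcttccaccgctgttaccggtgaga
Ankrd37, chr8:45999851-46000100: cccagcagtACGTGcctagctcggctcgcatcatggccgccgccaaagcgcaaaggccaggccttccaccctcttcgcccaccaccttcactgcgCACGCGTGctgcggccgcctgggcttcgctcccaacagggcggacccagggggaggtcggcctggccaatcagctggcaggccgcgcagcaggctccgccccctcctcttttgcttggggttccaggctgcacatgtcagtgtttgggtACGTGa

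The promoter table held 8 of the 10 members with 10 starts in all, and not Epas1 or Ndrg1. In the window from 250 bases before to 50 bases after the start, 9 of the 10 starts held ACGTG or GCGTG on either strand. Over all 32851 promoters of that length, 43.8% held one, and 38.6% did in the 250 bases before the start alone. The outer start of Pfkfb3 held 1 match and the inner start 4, of which 3 lie in the stretch printed. A pair of these matches in the inner start are the 2 strands of 1 CACGTG, a palindrome that also contains the core and is known as the E-box bound by clock and MYC-type factors. CACGTG was present in 7.15% of all promoters of the same length. Hif1a was the other member with a CACGTG. The outer start of Vegfa held no match and its inner start 2, while Ankrd37 held 4. A match is a run of letters and not a measured binding site, and which start was used cannot be read from 3′-end counts.

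**Figure D1:**
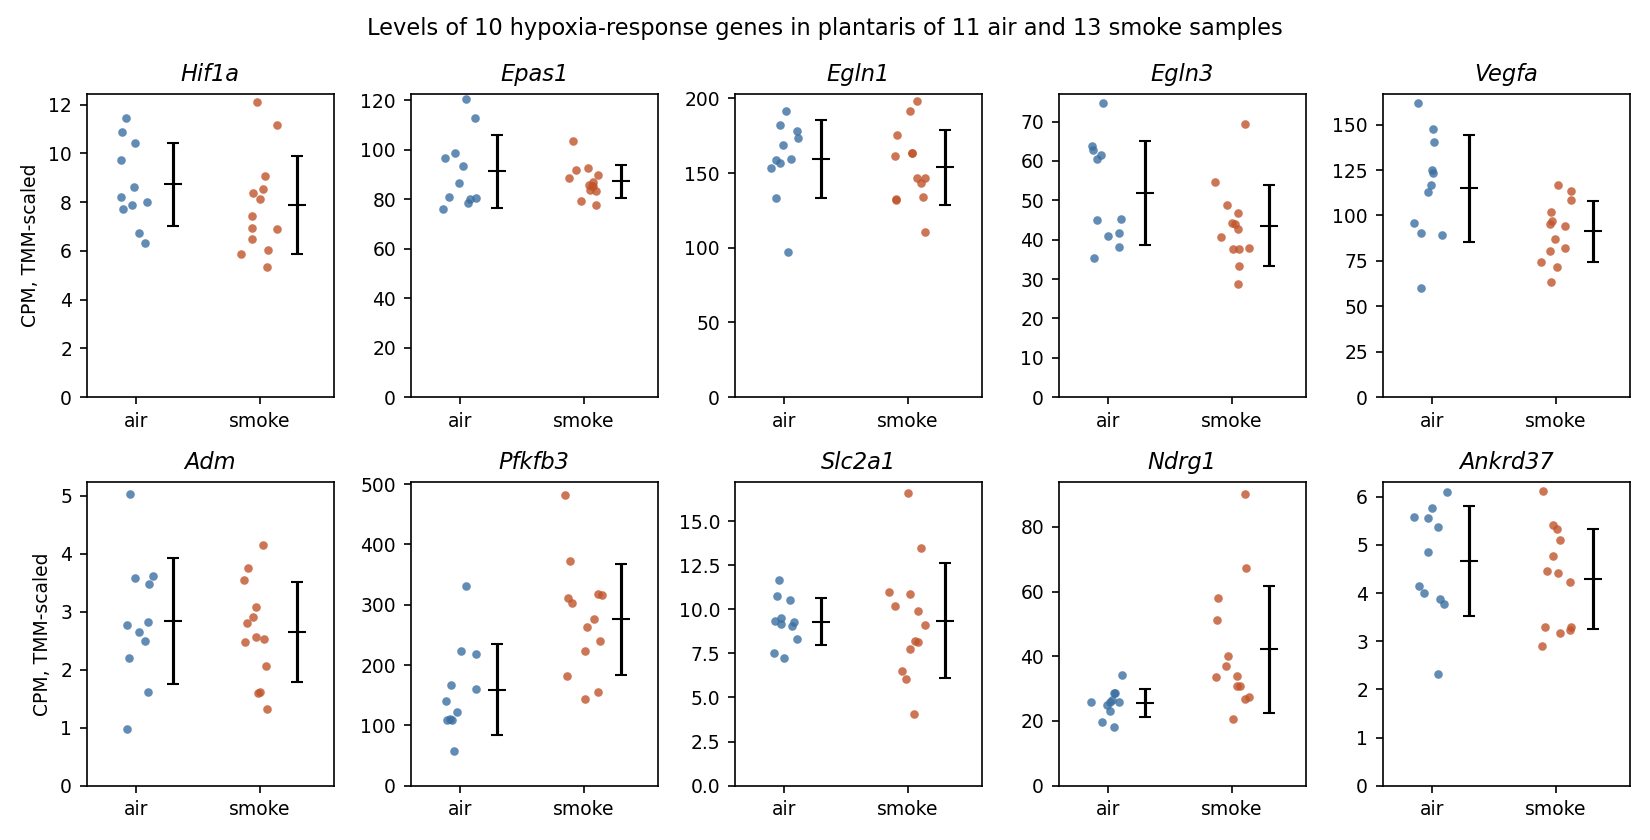
Level of each member in CPM (linear axes from 0, 1 point per sample, points spread sideways at random) in 11 air and 13 smoke samples, with a bar beside each group for the mean ± SD. Pfkfb3 and Ndrg1 have higher means in smoke, at 276 and 42.1 CPM, and the groups overlap in all 10 panels.

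Of the 10 members, 9 passed the expression filter, and Adm, with 4 to 16 counts per sample, did not. At an adjusted p under 0.05 (edgeR quasi-likelihood test over 10159 genes), 2 of the 9 tested members, Pfkfb3 and Ndrg1, were called higher in smoke, where 0.728% of all tested genes were. None was called lower, where 1.19% of all tested genes were. Because the list was built around those 2 genes, nothing is read from this share. Both calls ended under some of the alternatives given below. Vegfa was called lower when air replicate 11 was left out, at −0.41 (SE 0.098). The other 7 of the 9 had log2 fold changes from −0.34 to −0.01, below 0 as in 48.4% of all tested genes. The direction was not stable for all of them: Slc2a1 kept it in 15 of 24 fits that left out 1 sample, and Egln1 in 9 of 12 other alternatives, reaching 0.15 with a clock index as a covariate. No member had CPM values that separated the groups completely, which 0.0295% of tested genes did.

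The HIF subunits were close in both groups. Hif1a (chromosome 12, 73901375 to 73947530, GRCm38, plus strand), the oxygen-labile alpha subunit found in most cells, ran from 6.31 through a median of 8.23 to 11.5 CPM in air. In smoke it ran from 5.35 through 7.42 to 12.1 CPM. The ranges lay almost on top of each other, with a log2 fold change of −0.14 (SE 0.14). Another annotated gene, Gm49321, overlaps the 3′ end of Hif1a on the same strand and Gm15283 on the opposite strand, so the count of Hif1a is uncertain.

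Epas1 (chromosome 17, 86753700 to 86833410, GRCm38, plus strand), the alpha subunit known for high expression in endothelium, ran from 75.9 through 86.5 to 120 CPM in air. In smoke it ran from 77.5 through 85.8 to 103 CPM. The medians nearly matched and the spread was narrower in smoke, at an SD of 6.56 against 14.7 CPM in air. This difference in spread was not tested. The log2 fold change was −0.07 (SE 0.070). Of 8 endothelial markers 8 were tested and 0 called, and their summed level was 192 to 258 CPM in air and 198 to 275 CPM in smoke. Single markers differed more than the sum, up to 0.25 (SE 0.11) for Vwf.

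Neither oxygen sensor passed the threshold. Egln1 (chromosome 8, 124908587 to 124949324, GRCm38, minus strand), the main hydroxylase of HIF-1α in normal oxygen, ran from 97.0 through 160 to 191 CPM in air and from 111 through 147 to 198 CPM in smoke. The groups overlapped over nearly all of their range, and the log2 fold change was −0.05 (SE 0.088). Egln3 (chromosome 12, 54178981 to 54203860, GRCm38, minus strand), a hydroxylase that is itself induced by HIF, ran from 35.4 through 45.3 to 74.8 CPM in air. In smoke it ran from 28.7 through 42.8 to 69.3 CPM. Of 13 smoke samples 11 lay below the air mean of 51.8 CPM, 2 of them below every air sample, and the log2 fold change was −0.25 (SE 0.12), which did not pass the threshold. The highest smoke sample, replicate 1, stood well above the next, at 54.8 CPM in replicate 7.

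Vegfa (chromosome 17, 46016993 to 46032369, GRCm38, minus strand), the growth factor that drives capillary growth in muscle, ran from 60.1 through 117 to 162 CPM in air and from 63.2 through 94.4 to 117 CPM in smoke. The highest smoke sample was thus near the air median, 5 air samples lay above all smoke samples, and 12 of 13 smoke samples were below the air mean of 115 CPM. The log2 fold change was −0.34 (SE 0.11), a level 20.8% lower, and without air replicate 11, the lowest air sample, it was −0.41 (SE 0.098). Adm, which encodes the vasodilator peptide adrenomedullin (chromosome 7, 110627661 to 110629820, GRCm38, plus strand), had 107 counts over 11 air samples and 118 over 13 smoke samples. Its level was 2.84 ± 1.09 CPM (SD, n = 11) among air samples and 2.64 ± 0.860 CPM (SD, n = 13) among smoke samples, and the difference was not tested.

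Slc2a1 (chromosome 4, 119108711 to 119137983, GRCm38, plus strand), the glucose transporter GLUT1, ran from 7.24 through 9.30 to 11.7 CPM in air and from 4.04 through 9.09 to 16.6 CPM in smoke. The medians were alike and the smoke samples spread on both sides of the air samples, 2 above the highest and 3 below the lowest. The log2 fold change was −0.01 (SE 0.15). Smoke replicate 2 was the highest sample for both Slc2a1 and Ndrg1. Ankrd37 (chromosome 8, 45996902 to 46005707, GRCm38, minus strand), an ankyrin repeat protein gene used as a HIF target marker, ran from 2.32 through 4.85 to 6.11 CPM in air. In smoke it ran from 2.90 through 4.41 to 6.12 CPM. These levels rest on 9 to 24 counts per sample, and the log2 fold change was −0.10 (SE 0.17). Its 3′ end overlaps Ufsp2 on the opposite strand, which had 5605 counts in all against 374 for Ankrd37, and strand use in counting was not given in the sources used here.

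Pfkfb3 (ENSMUSG00000026773, chromosome 2, 11471433 to 11554077, GRCm38, minus strand) encodes the bifunctional enzyme that makes fructose 2,6-bisphosphate, the strongest allosteric activator of phosphofructokinase and hence of glycolysis. It ran from 58.1 through 141 to 331 CPM in air and from 143 through 277 to 482 CPM in smoke. Of 11 air samples 6 lay below every smoke sample, and 11 of 13 smoke samples lay above the air mean of 159 CPM. Air replicate 11 reached 331 CPM, higher than all smoke samples except replicates 3 and 12. The log2 fold change was 0.80 (SE 0.19), 1.74-fold higher in smoke.

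Pfkfb3 also varied widely among samples of 1 group. Its biological coefficient of variation was 32.3%, higher than that of 97.7% of tested genes, against a median of 14.9%. Air replicate 11 was at the same time the lowest air sample for Vegfa (60.1 CPM), Egln1 (97.0 CPM) and Slc2a1 (7.24 CPM). It also had the lowest TMM factor of the 24 samples, 0.857, and the largest share of counts on the gene Gm42418 in air, 16.1%. Whether a library difference plays a part in its values was not tested. Without air replicate 11 the log2 fold change of Pfkfb3 was 0.96, the highest when single samples were left out. Without smoke replicate 12 it was 0.70, the lowest. The annotated genes that overlap Pfkfb3 (Gm10851 and Gm37975) lie 50273 and 61163 bases from its 3′ end and had 6 and 3 counts in all, against 18416 for Pfkfb3.

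Ndrg1 (ENSMUSG00000005125, chromosome 15, 66929318 to 66969640, GRCm38, minus strand) encodes an α/β-hydrolase-fold protein that is induced by hypoxia in many cells and is also abundant in myelinating Schwann cells, where its loss causes a demyelinating neuropathy. It ran from 18.0 through 25.8 to 34.1 CPM in air and from 20.8 through 33.8 to 90.3 CPM in smoke. In 6 smoke samples it exceeded every air sample, and in the other 7 it lay within the air range. The SD was 4.36 CPM in air and 19.6 CPM in smoke. The log2 fold change was 0.71 (SE 0.17), 1.63-fold higher in smoke, and 0.56 without smoke replicate 2. Antisense Gm17035 overlaps Ndrg1 near its 3′ end and had 1 count in all, against 2799 for Ndrg1.

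The samples high in Ndrg1 and in Pfkfb3 were set side by side. Of 6 smoke samples above all air samples in Ndrg1 and 2 in Pfkfb3, 1 (replicate 12) was shared. The count for Pfkfb3 is set by air replicate 11: 9 smoke samples lay above the next air sample, at 223 CPM, and 4 of these 9 were among the 6 high in Ndrg1. Within air, the log2 levels of both genes correlated at Pearson's r 0.65 (permutation p = 0.0304, Benjamini-Hochberg adjusted p = 0.217, n = 11) and Spearman's rho 0.70 (permutation p = 0.0206, adjusted p = 0.206). With the 2 samples of most extreme Ndrg1 left out, r was 0.54. Within smoke, r was 0.23 (permutation p = 0.449, adjusted p = 0.749, n = 13) and rho 0.088 (permutation p = 0.778, adjusted p = 0.866), and r was 0.25 without 2 samples and −0.13 without smoke replicates 2, 10 and 12. Neither relation passed adjustment over the family of 50 relations, which set Pfkfb3 and Ndrg1 against the other members, 4 marker scores and a clock index in each group.

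Ndrg1 correlated with the Schwann cell markers in smoke, a relation whose r rests on the samples highest in them. A score of the 7 tested markers (their mean log2 CPM, with Pmp22, Mbp, Prx, Mag and S100b among them) correlated with Ndrg1 in smoke at r 0.88 (permutation p = 0.00017, adjusted p = 0.0085, n = 13) and rho 0.93 (permutation p = 4e-05, adjusted p = 0.002). This was the 1 relation of the 50 to pass adjustment, by r and by rho. With the 2 samples of most extreme score left out, r was 0.74 (permutation p = 0.011, adjusted p = 0.276). Without smoke replicate 2 it was 0.82, with an adjusted permutation p of 0.11. Without smoke replicates 2, 10 and 12, r was 0.55 (permutation p = 0.105, adjusted p = 0.377, n = 10) and rho 0.85 (permutation p = 0.00289, adjusted p = 0.113). Within air, r was −0.11 (permutation p = 0.740, n = 11) and rho 0.19 (permutation p = 0.580), and r was 0.48 without air replicate 6, which had the highest marker level of its group and the second lowest Ndrg1. Whether the relation differs between air and smoke was not tested.

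The markers themselves differed between the groups. The summed level of all 8 ran from 167 through 235.3 to 384 CPM in air and from 242.6 through 310 to 953 CPM in smoke, and none was at 0 in all samples. Of the 7 tested, 3 were called higher and 0 lower. Pmp22, a membrane protein of compact myelin, ran from 23.4 through 32.5 to 42.8 CPM in air and from 27.8 through 38.0 to 142 CPM in smoke. Its log2 fold change was 0.88 (SE 0.24, edgeR adjusted p = 0.0481), with the smoke median inside the air range. Prx, which encodes periaxin of the Schwann cell membrane, stood at 1.48 (SE 0.39, edgeR adjusted p = 0.0362). Mag and Mbp, also made by myelinating glia, had log2 fold changes of 0.07 (SE 0.20) and 0.41 (SE 0.17) and were not called. Without smoke replicates 2, 10 and 12, Pmp22 stood at 0.28 (SE 0.13, edgeR adjusted p = 0.352) and Prx at 0.49 (SE 0.23, edgeR adjusted p = 0.327), and neither was called. Of 5 smoke samples whose summed marker level exceeded that of every air sample, 5 also exceeded every air sample in Ndrg1. That count is set by air replicate 6: without it the highest air sum was 249.2 CPM, and 6 of the 10 smoke samples above it were high in Ndrg1.

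**Figure D2:**
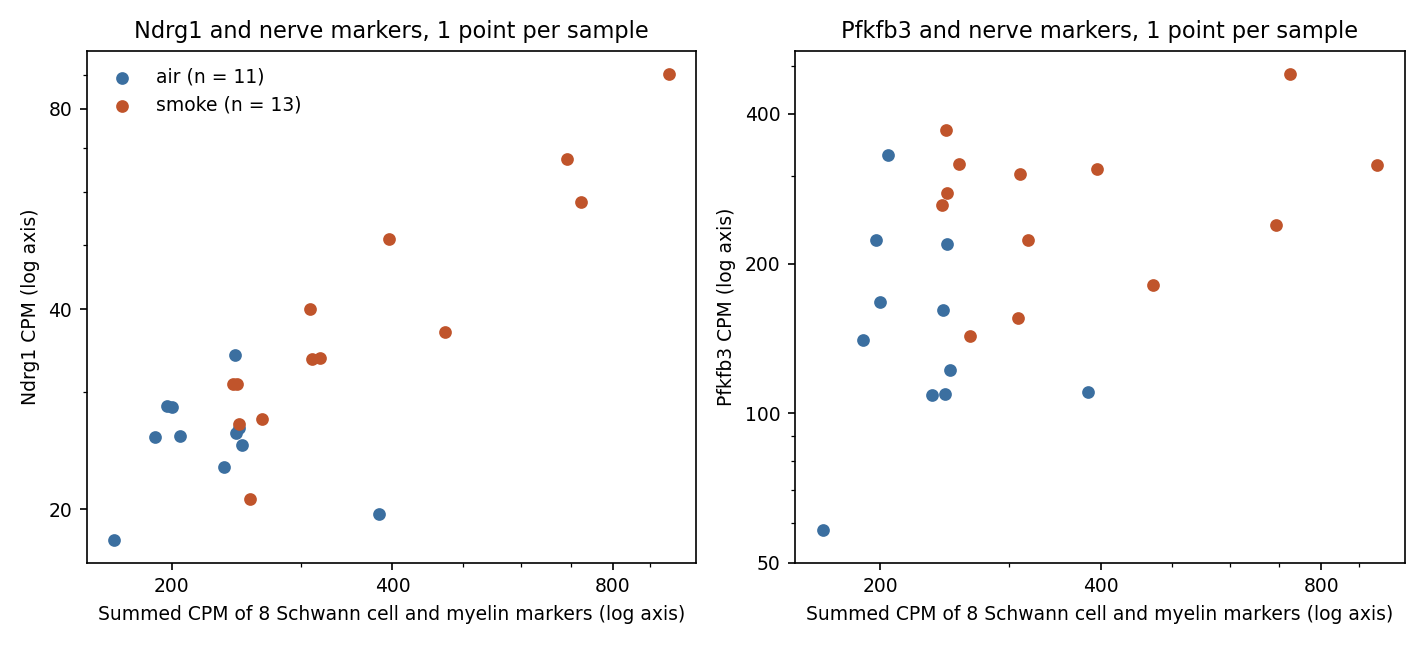
Ndrg1 (left) and Pfkfb3 (right) in CPM against the summed CPM of 8 Schwann cell and myelin markers, log axes, 1 point per sample, 11 air and 13 smoke. The smoke points of Ndrg1 climb with the markers up to 90.3 CPM at a sum of 953, and those of Pfkfb3 do not line up with them.

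With the marker score as a covariate, the log2 fold change of Ndrg1 was 0.14 (SE 0.15), down from 0.71, and that of Pfkfb3 was 0.79 (SE 0.24), near its value of 0.80 without it but with a wider error. Neither gene passed the threshold in that fit. Without smoke replicates 2, 10 and 12, Ndrg1 stood at 0.37 (SE 0.12) and Pfkfb3 at 0.68 (SE 0.19), and again neither passed. The score itself correlated with the group at r 0.57, so that a covariate of this kind also takes up part of any group difference. The part of nerve content in the Ndrg1 difference was not tested. With the red blood cell score, which correlated with the group at r −0.56, Pfkfb3 stood at 0.70 (SE 0.25) and Ndrg1 at 0.83 (SE 0.21), neither past the threshold, and the part of blood content was not tested.

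Pfkfb3 was also set against a clock index, the mean log2 CPM of Dbp, Tef, Hlf, Per2, Per3, Nr1d1 and Nr1d2 minus that of Arntl, Clock, Nfil3 and Cry1. Its genes did not differ alike between the groups. Dbp (1.18, SE 0.16), Per3, Nr1d2 and Nfil3 (−1.31, SE 0.15) were called. The others, such as Tef (0.05, SE 0.075) and Clock (−0.06, SE 0.10), were not, and whether the index follows clock phase was not tested. The index was 1.24 ± 0.292 (SD, n = 11) among air samples and 2.08 ± 0.401 (SD, n = 13) among smoke samples. Within smoke its r with Pfkfb3 was 0.56 (permutation p = 0.0480, adjusted p = 0.252, n = 13) and rho 0.45 (permutation p = 0.129), and r was 0.27 with the 2 most extreme index values left out. Over left-out single samples, it was lowest at 0.31 without smoke replicate 11 (adjusted permutation p of 0.742). It was highest at 0.80 without smoke replicate 12 (adjusted permutation p of 0.0315). Without replicates 2, 10 and 12 it was 0.82 (adjusted permutation p of 0.0715, n = 10). Within air r was 0.29 (permutation p = 0.394, n = 11). The relation was not particular to the index: in smoke, rho of Pfkfb3 with the red blood cell score was −0.62 (permutation p = 0.0293, adjusted p = 0.221). With the endothelial score rho was 0.57 (permutation p = 0.0455, adjusted p = 0.253). With the index as a covariate, the log2 fold change of Pfkfb3 was 0.23 (SE 0.28), that of Ndrg1 0.26 (SE 0.26) and that of Vegfa 0.08 (SE 0.16), none of them past the threshold. The index correlated with the group at r 0.78, and the part of clock phase in these differences was not tested.

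**Figure D3:**
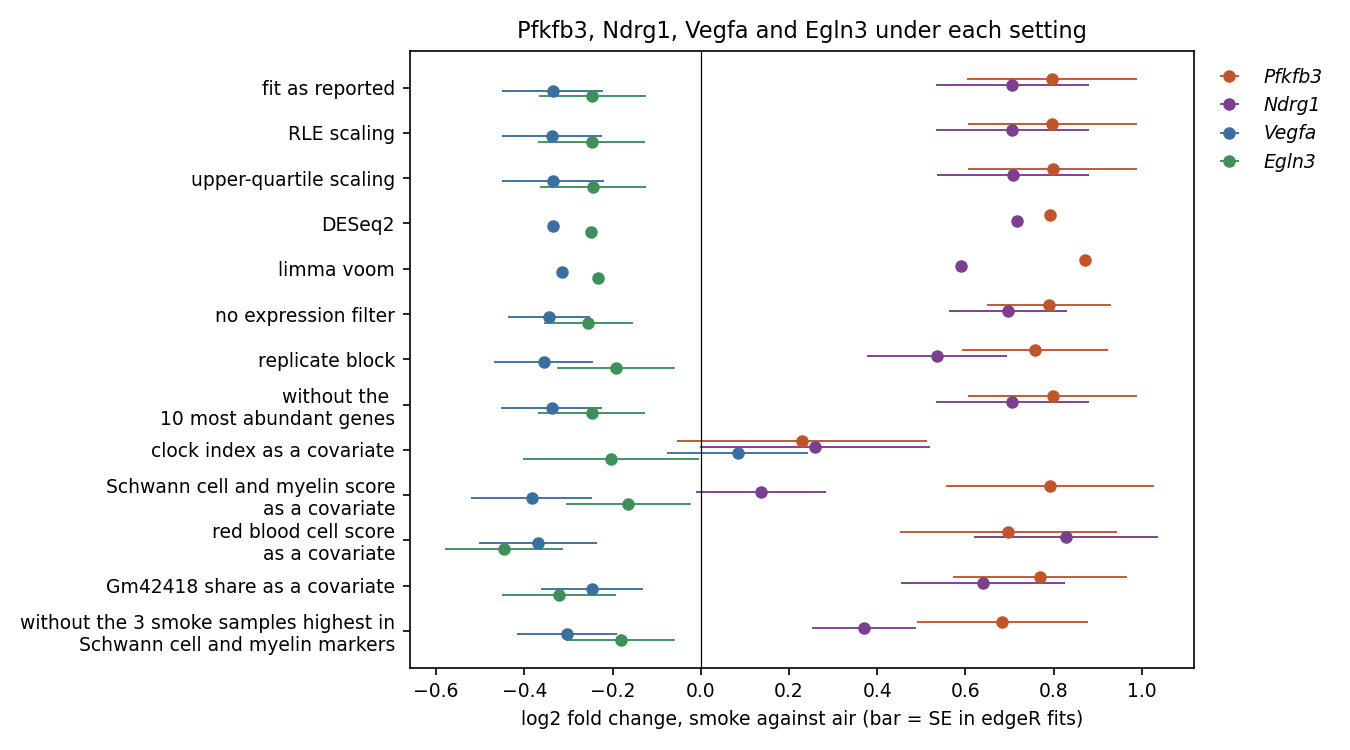
Log2 fold change (smoke against air) of Pfkfb3, Ndrg1, Vegfa and Egln3 in the fit as reported and under each alternative scaling, test, filter, block and covariate, with SE bars for the edgeR fits. Pfkfb3 falls from 0.80 to 0.23 with the clock index and Ndrg1 from 0.71 to 0.14 with the Schwann cell score.

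The genes most like each of the pair were found over 24 samples, with the group means removed, among 8368 genes with a mean of at least 5 CPM. For Ndrg1 they included Apod (r = 0.86), D630023O14Rik (0.84), Pmp22 (0.84) and Drp2 (0.83). Without smoke replicates 2, 10 and 12 (21 samples), r was 0.56 for Apod, 0.51 for Pmp22 and 0.55 for Drp2, and 0.85 for D630023O14Rik. Pmp22 and Drp2 encode proteins of the myelin sheath or of the Schwann cell membrane around it, and Apod a lipocalin made in nerve sheaths. These 4 had their highest sample in smoke, Pmp22 at 142 CPM against at most 42.8 CPM in air and Drp2 at 36.4 CPM against at most 7.15 CPM.

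For Pfkfb3 they were Pik3ip1 (r = 0.79), Oplah (0.77), Ky (0.74), Rnf169 (0.72) and Sfxn3 (0.72). Pik3ip1, an inhibitor of phosphoinositide 3-kinase, ran from 61.3 through 74.6 to 105 CPM in air and from 79.9 through 111 to 124 CPM in smoke, with a log2 fold change at 0.43 (SE 0.087, edgeR adjusted p = 0.00484). Ky, which encodes a muscle cytoskeletal protein, was also called higher, at 0.41 (SE 0.096, edgeR adjusted p = 0.0151). Oplah, the oxoprolinase of the glutathione cycle, had a log2 fold change at −0.33 (SE 0.095, edgeR adjusted p = 0.061), opposite to that of Pfkfb3 although it followed Pfkfb3 within groups. These r values share library and depth, come from the same counts that ranked the genes, and are given as descriptions. No member was on either list.

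Among the 36 pairs of tested members, r over group-centred values ran from −0.52 to 0.56 (24 samples). Egln1 and Vegfa were the highest pair at 0.56 and Egln3 and Ndrg1 the lowest at −0.52. Egln3 was also negative with Epas1 (−0.48) and with Pfkfb3 (−0.46), and Pfkfb3 with Vegfa (−0.46). Pfkfb3 and Ndrg1 stood at 0.32, and Hif1a with Pfkfb3 at 0.057. Within air, Ndrg1 had its highest r with Ankrd37, at 0.77 (permutation p = 0.00524, adjusted p = 0.131, n = 11), and its highest rho with Epas1, at 0.80 (permutation p = 0.00462, adjusted p = 0.116). Without 2 samples r was 0.64 with Ankrd37 and 0.81 with Epas1. In smoke r was −0.26 with Ankrd37 (permutation p = 0.396, n = 13) and 0.04 with Epas1 (permutation p = 0.9004).

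Beyond the members, a list of 94 other genes of the pathway was examined, of which 70 were tested. This list too was chosen with earlier results of these data known. In smoke, 1 was called higher and 0 lower, 1.43% of the 70 where 1.92% of all tested genes were called in either direction. At an unadjusted p under 0.05 there were 13 of 70, and 1575 of 10159 in all. The median log2 fold change of the 70 was −0.04, beside 0.01 over all tested genes, and 43 of 70 were below 0. The called gene was Bhlhe40, a basic helix-loop-helix repressor that both hypoxia and the clock induce. It ran from 60.4 through 88.3 to 98.7 CPM in air and from 103 through 112 to 149 CPM in smoke, with no overlap, and its log2 fold change was 0.44 (SE 0.072, edgeR adjusted p = 0.00105). Bhlhe40 was not called with the clock index as a covariate, a fit that called 2 genes in all. It overlaps 0610040F04Rik, which had 26 counts in all against 8329.

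**Figure D4:**
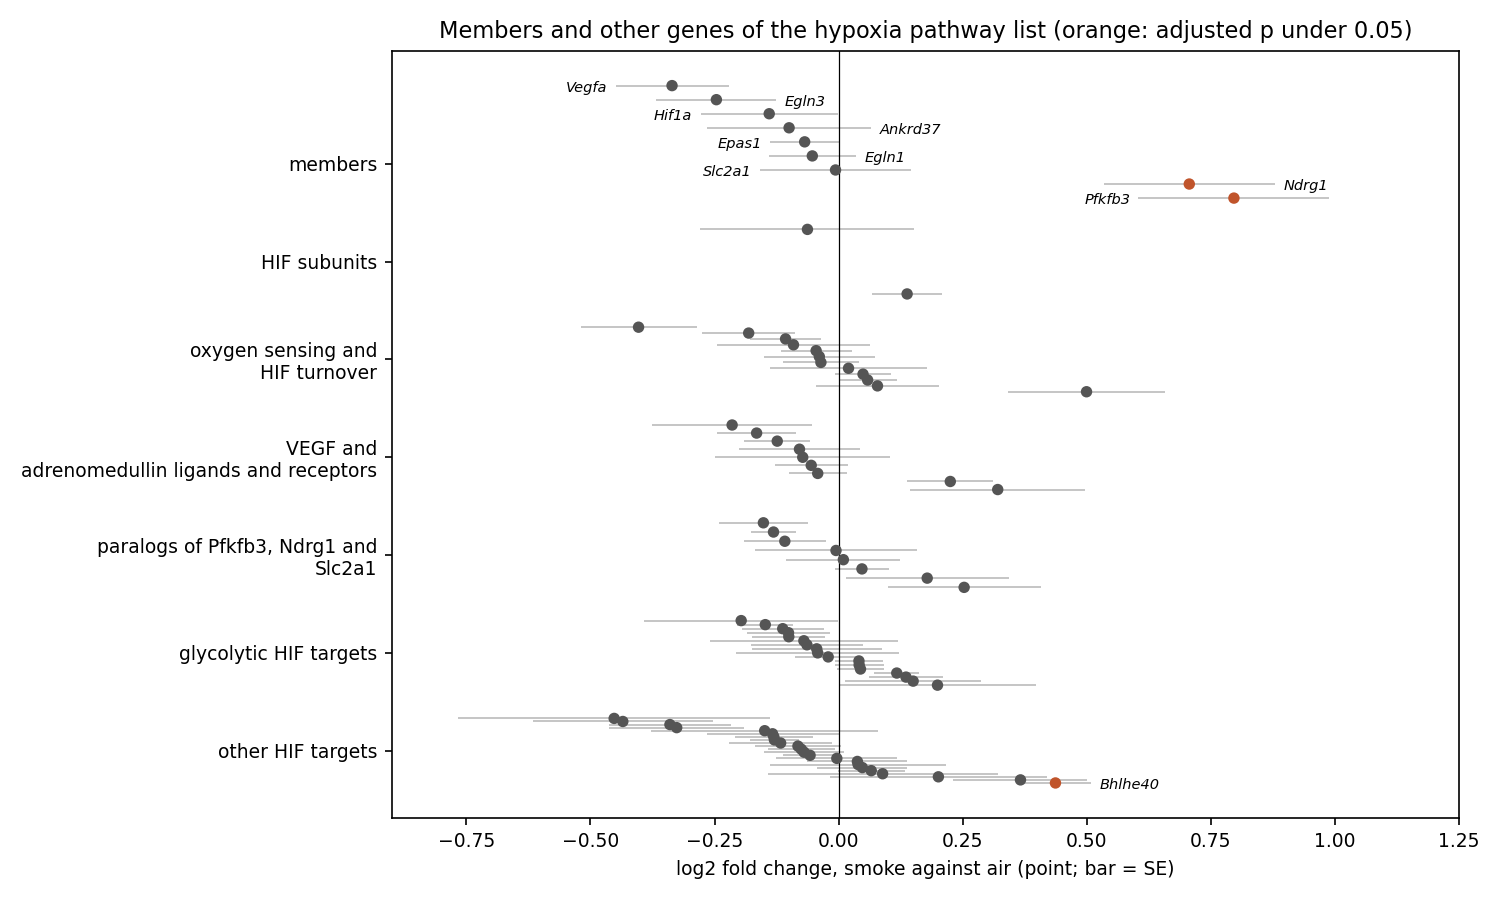
Log2 fold change (smoke against air, bar for SE) of the 9 tested members and of 70 other pathway genes in 6 groups, orange where the adjusted p was under 0.05. Pfkfb3, Ndrg1 and Bhlhe40 are the orange points, and the glycolytic targets lie between −0.20 and 0.20.

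The HIF partner Arnt was tested at 38.8 ± 4.502 CPM (SD, n = 11) among air samples and 42.9 ± 4.26 CPM (SD, n = 13) among smoke samples, at a log2 fold change near 0.14 (SE 0.071), and neither it nor Arnt2 (−0.06, SE 0.22) was called. Of 12 genes of oxygen sensing and HIF turnover, 12 were tested and 0 called. Egln2, the third prolyl hydroxylase, was at −0.11 (SE 0.071) and Hif1an, the asparaginyl hydroxylase that inhibits HIF, at 0.05 (SE 0.057). The lowest value of this group was that of Siah1a, a ubiquitin ligase that degrades the prolyl hydroxylases, at −0.40 (SE 0.12, edgeR adjusted p = 0.0627). The highest was that of Cited2, which competes with HIF for its coactivators, at 0.50 (SE 0.16, edgeR adjusted p = 0.0874).

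Of 16 VEGF and adrenomedullin ligands and receptors 9 were tested and 0 called, with log2 fold changes from −0.21 to 0.32. The VEGF receptor Flt1 was at −0.06 (SE 0.073) and the ligand Vegfb at −0.04 (SE 0.058). Of 9 paralogs of Pfkfb3, Ndrg1 and Slc2a1, 8 were tested and 0 called. Ndrg2, the muscle-abundant relative of Ndrg1, was at 3140 ± 232.8 CPM (SD, n = 11) among air samples and 2867 ± 149 CPM (SD, n = 13) among smoke samples, with a log2 fold change at −0.13 (SE 0.045, edgeR adjusted p = 0.118) that did not pass. Slc2a4, the insulin-responsive transporter GLUT4, was at 0.05 (SE 0.055), and Pfkfb4 at −0.15 (SE 0.090).

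Of 18 glycolytic HIF targets 17 were tested and 0 called, with log2 fold changes from −0.20 to 0.20 and a median of −0.04. Aldoa, an aldolase of muscle glycolysis, was at 5069 ± 402 CPM (SD, n = 11) among air samples and 5227 ± 318 CPM (SD, n = 13) among smoke samples, and Pkm, the muscle pyruvate kinase, at 1596 ± 327 and 1488 ± 127 CPM. Their log2 fold changes were 0.04 (SE 0.047) and −0.10 (SE 0.073). Of 36 other HIF targets 22 were tested, with 1 called, Bhlhe40. Higd1a, a hypoxia-induced protein of the respiratory chain, was at −0.13 (SE 0.050, edgeR adjusted p = 0.177) and Fam162a at −0.06 (SE 0.055). Bhlhe41, the paralog of Bhlhe40, was at 0.37 (SE 0.14, edgeR adjusted p = 0.155) and Hilpda, a lipid droplet protein induced by HIF, at −0.34 (SE 0.12, edgeR adjusted p = 0.148).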

How the data were processed

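RNA of 24 plantaris samples was sequenced with the Lexogen QuantSeq 3′ FWD kit on an Illumina HiSeq instrument, per the labels' protocols. The deposited table holds the authors' raw read counts, with Ensembl IDs for genes. The submitters' processing notes name STAR, DESeq2 and the build mm9, with no role; the counting tool, the annotation and any use of strand or molecular identifiers were not given in the sources used here. Reads may therefore include PCR copies. In the column names all smoke samples precede all air samples on the sample sheet, and that order and the group cannot be told apart.

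Symbols and positions came from GENCODE M21 (GRCm38), which held 47224 of 47643 IDs. No coordinate was converted, and mm9 positions differ. Counts were tested with edgeR 4.0.16 in R 4.3.3 (filterByExpr with a minimum count of 10, TMM, glmQLFit and glmQLFTest, 24 samples, no covariate), with Benjamini-Hochberg adjustment over 10159 genes and a threshold of 0.05. The test was checked on simulated counts. Scores are mean log2 CPM (prior count 2). Correlations had two-sided permutation tests with 100000 resamples. No 2 samples of a group agreed within sampling noise (133 pairs, chi-square per gene at least 3.35). DESeq2 1.42.0, limma 3.58.1, other scalings, covariates, the replicate block and left-out samples served as alternatives.

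The members and lists were chosen with earlier results of these data known. Named were the 10 members, called pathway genes, the 2 tested genes of highest mean CPM in each pathway group, and for Pfkfb3 and Ndrg1 the 5 genes of highest r. Some of the genes these rules take are not reported here. Siah1a, Cited2, Pfkfb4, Bhlhe41, Hilpda, Ddit4, Epo, Car9, Nos2, Hif3a and Vwf were named after their values were seen.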

Additional observations from a re-analysis of the deposited data

How the results depend on the processing

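Of 324 member fold changes under alternatives, 322 moved by less than 1 SD of log2 CPM between samples. This is a wide measure: Pfkfb3 at 0.23 with the clock index, down from 0.80, is among the 322. For each member, 24 of the alternatives left out 1 sample and 12 were other settings, so the count says little about stability. The 2 that moved further were Ndrg1 at 0.14 with the Schwann cell score and Vegfa at 0.08 with the clock index as a covariate. Slc2a1, Egln1 and Vegfa changed direction under some alternatives. The calls of Pfkfb3 and Ndrg1, which the choice of list fixed, ended with the clock index or the Schwann cell score as a covariate and without smoke replicates 2, 10 and 12. They also ended with the red blood cell score (0.70 and 0.83). That of Ndrg1 ended with limma voom (0.59), the block (0.54, which also left out smoke replicates 12 and 13) and the Gm42418 share (0.64). Leaving out these 3 smoke samples, highest in Schwann cell markers, or the highest air sample was chosen after the data were seen.

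Against 195 genes called (74 higher, 121 lower), DESeq2 called 323 (121 and 202), the clock index as a covariate left 2 (0 and 2, with 1076 at an unadjusted p under 0.05), the Schwann cell score 69 (19 and 50) and the red blood cell score 56 (18 and 38). Without smoke replicates 2, 10 and 12, 42 were higher. Left-out single samples gave 141 to 254 genes, 47 to 103 higher and 92 to 163 lower. Pathway genes called numbered 1, with 3 by DESeq2 (Bhlhe40, Ndrg2 and Siah1a), 0 with the clock index, 2 with the Schwann cell score or without those 3 samples (Bhlhe40 and Cited2) and 2 with the Gm42418 share (Bhlhe40 and Bhlhe41). They were 1 or 2 when single samples were left out. The cause of these shifts was not tested.

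The labels do not say whether samples of the same replicate number belong together. Deviations of the 11 same-numbered pairs correlated at −0.28 to 0.14 (mean −0.0059), beside a mean of 0.0011 over 132 other pairs. Same-numbered samples were thus no more alike, which does not exclude a pairing. A replicate block fitted on 22 samples gave 138 called genes and 1 pathway gene, and Ndrg1 stood at 0.54. This fit lacked smoke replicates 12 and 13, whose numbers have no air sample. Both were among the 6 smoke samples above every air sample in Ndrg1, and the part of leaving them out was not tested. Without the 2 farthest samples, r of Ndrg1 turned to −0.091 (air) and −0.14 (smoke) with the clock index, and to 0.13 with the Schwann cell score in air. Leaving out single samples, r of Ndrg1 ran from −0.076 to 0.32 with the clock index and from −0.51 to 0.48 with the Schwann cell score in air. That of Pfkfb3 with the Schwann cell score ran from −0.58 to 0.047 in air and from −0.062 to 0.26 in smoke. Without the 3 smoke samples, r of Pfkfb3 in smoke turned to −0.13 with Ndrg1 and −0.43 with the Schwann cell score. Counts were low for Adm, Ankrd37 and the 24 untested pathway genes, and the parts of depth and of low expression in this were not tested.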

Other observations

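Of the 24 pathway genes below the expression filter, several classic targets were nearly silent in this muscle. Epo, the kidney and liver hormone of red cell production, had 2 counts over 11 air and 1 over 13 smoke samples. Car9, a carbonic anhydrase widely used as a hypoxia marker, had 13 and 14, and Nos2, the inducible nitric oxide synthase, 10 and 13. Hif3a, the third alpha subunit, had 14 and 11. None of these was tested.

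Ddit4, which restrains mTORC1 under hypoxia and glucocorticoids, showed 1 air sample far from the rest. It ran from 11.7 through 21.2 to 97.5 CPM in air and from 15.3 through 24.8 to 39.0 CPM in smoke, with a log2 fold change of −0.15 (SE 0.23). It was named after its values were seen.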
